A study of Homo sapiens with 5 samples.

Results

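Replication-dependent histone genes and the genes that supply, process and deposit new histones were examined for promoter occupancy by the retinoblastoma protein (Rb). Members were chosen by gene name from the GENCODE annotation: the linker histone genes H1-1 to H1-6, every H2AC, H2BC, H3C and H4C gene, and SLBP, NPAT, CASP8AP2, NASP, ASF1A, ASF1B, CHAF1A, CHAF1B, HIRA and LSM11. This gave 79 genes, 69 histone genes and 10 supply genes, of 19970 coding genes of the autosomes and the X chromosome. ZR-75-1, an established breast cancer line that carries hormone receptors, was kept for 4 days in DMSO or in 500 nM abemaciclib, a drug that inhibits the kinases CDK4 and CDK6. The labels give the genotype of all libraries as Parent. Native Rb was profiled by CUT&RUN: a nuclease tethered to an antibody cuts out the DNA around the protein, and the fragments it frees are sequenced. Each treatment had 2 Rb libraries, a single IgG2a library of DMSO-treated cells served as background. The study describes the 2 libraries of a treatment as separate cultures, each profiled in its own reaction.

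Replication-dependent histone genes are expressed in S phase, when new DNA must be packaged, and most of them lie in a large cluster on chromosome 6 with smaller clusters on chromosome 1. Their mRNAs are not polyadenylated and end in a conserved stem-loop that SLBP binds. NPAT, a substrate of cyclin E-CDK2, activates their transcription in nuclear bodies at the gene clusters, where CASP8AP2 (also called FLASH) and LSM11, a subunit of the U7 small nuclear ribonucleoprotein, take part in cutting the 3′ end of the transcript. NASP, ASF1A and ASF1B carry new H3 and H4, CHAF1A and CHAF1B are subunits of the CAF-1 complex that places them on replicated DNA, and HIRA deposits the variant H3.3 outside replication. Hypophosphorylated Rb, the form that CDK4/6 inhibition favours, binds E2F transcription factors, many of whose target genes serve the entry into S phase.

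The stem-loop is shown first because it is what sets these histone genes apart from the supply genes as transcripts. A stem-loop was found in an annotated transcript of all 69 histone genes and in none of the 10 supply genes. Each sequence holds 5 bases on either side of the 16-base hairpin, which is in capitals, written 5′ to 3′ from the GENCODE 44 transcript. Over the 69 genes there were 10 versions of the hairpin: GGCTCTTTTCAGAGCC was the version of 40 genes, H1-3 among them, and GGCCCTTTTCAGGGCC was that of 10 genes, H4C8 among them. The third line, from H2BC11, has the version found in 9 genes. In the transcript used, 5 bases follow the hairpin for H1-3 and H2BC11 but 1655 for H4C8. The hairpin is therefore not always at the annotated end.
H1-3: taaacGGCTCTTTTCAGAGCCaccca
H4C8: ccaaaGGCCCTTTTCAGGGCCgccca
H2BC11: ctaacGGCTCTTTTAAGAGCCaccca

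The promoters differ far more than the stem-loops. The RefSeq promoter sequences (GRCh38.p14) held an entry for 74 of the 79 members. H2AC12, H3C11, H3C12, H4C1 and H4C3 had none. The lines below hold the 150 bases before the annotated start, 5′ to 3′ on the gene's strand, for a supply gene with Rb peaks in all 4 libraries whose height was low among shared genes after abemaciclib (CASP8AP2), a supply gene with high peaks in all 4 (NPAT), 2 histone genes with peaks after abemaciclib (H2AC11 and H4C9) and 3 histone genes with no Rb peak (H4C4, H3C3 and H1-3). Capitals mark matches on either strand to 7 motifs: E2F (any of the words TTCCCGC and TTCGCGC and TTGCCGC and TTGGCGC), the cell cycle homology region (TTTGAA), the CCAAT box, the TATA box (TATAAA), the octamer (ATTTGCAT), the H1 box (AAACACA) and the H4 element (GGTCCG). Matches that overlap share their capitals. The stretches are chr6:89829730-89829879 on the plus strand for CASP8AP2, chr11:108222639-108222788 on the minus strand for NPAT, chr6:27132893-27133042 on the plus strand for H2AC11, chr6:27139132-27139281 on the plus strand for H4C9, chr6:26189113-26189262 on the minus strand for H4C4, chr6:26045234-26045383 on the plus strand for H3C3 and chr6:26234988-26235137 on the minus strand for H1-3.
CASP8AP2: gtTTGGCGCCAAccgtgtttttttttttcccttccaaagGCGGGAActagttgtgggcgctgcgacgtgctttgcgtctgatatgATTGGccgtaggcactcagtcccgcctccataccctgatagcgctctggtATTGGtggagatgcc
NPAT: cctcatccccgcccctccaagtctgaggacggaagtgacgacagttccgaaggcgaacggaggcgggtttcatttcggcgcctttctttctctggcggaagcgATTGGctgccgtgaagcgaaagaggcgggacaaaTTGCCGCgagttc
H2AC11: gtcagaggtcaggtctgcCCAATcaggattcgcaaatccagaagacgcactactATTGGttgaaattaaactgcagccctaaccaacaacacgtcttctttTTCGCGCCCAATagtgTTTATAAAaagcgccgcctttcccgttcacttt
H4C9: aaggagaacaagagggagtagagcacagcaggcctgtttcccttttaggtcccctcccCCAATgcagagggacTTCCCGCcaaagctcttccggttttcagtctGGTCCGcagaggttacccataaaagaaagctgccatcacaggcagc
H4C4: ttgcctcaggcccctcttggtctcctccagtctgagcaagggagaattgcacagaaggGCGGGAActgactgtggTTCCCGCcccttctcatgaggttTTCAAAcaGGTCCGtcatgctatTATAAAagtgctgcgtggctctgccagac
H3C3: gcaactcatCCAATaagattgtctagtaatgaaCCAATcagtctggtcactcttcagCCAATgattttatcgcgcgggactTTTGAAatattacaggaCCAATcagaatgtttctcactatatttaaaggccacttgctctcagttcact
H1-3: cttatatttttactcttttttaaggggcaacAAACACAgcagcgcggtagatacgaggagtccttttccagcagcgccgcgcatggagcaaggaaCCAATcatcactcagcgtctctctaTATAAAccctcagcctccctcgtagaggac

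The 150 bases held 3 E2F matches for CASP8AP2, of which a pair lies on opposite strands of a single palindrome at the start of the line. They held 1 for NPAT, 1 for H2AC11, 1 for H4C9 and 2 for H4C4, and the lines for H3C3 and H1-3 held none. H4C4, with 2 E2F matches and no Rb peak, is an example where these words and occupancy did not go together. H2AC11 had 1 match and one of the highest histone peaks, which it shared with H2BC11. The abemaciclib summits of that peak lay 180 and 183 bp upstream of the H2AC11 start, outside the printed stretch. They lay 68 and 65 bp upstream of the H2BC11 start, and the 150 bases before that start held no E2F match.

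A gene was called bound in a library where a peak of that library overlapped the window from 2000 bp upstream to 500 bp downstream of the start of any of its transcripts. Peaks are the regions that the authors called in each library, and a peak that narrowly misses their threshold counts as no peak. After abemaciclib, Rb peaks were found at the promoters of all 10 supply genes in both libraries, but at only 31 of the 69 histone genes in each. Among the histone genes, 2 were bound in DMSO replicate 1, none in DMSO replicate 2, and 31 and 31 (44.9%) in abemaciclib replicates 1 and 2. The mean rose from 1.0 ± 1.41 to 31 ± 0 genes (SD, n = 2 libraries each), and the ranges did not overlap. An exact two-sided permutation test over the libraries gave p = 0.333, the smallest value that 2 libraries against 2 allow. Over all protein-coding genes the share bound was 7.86% in DMSO replicate 1, 12.4% in DMSO replicate 2, 58.0% in abemaciclib replicate 1 and 53.9% in abemaciclib replicate 2. The histone genes therefore lay below the genome-wide share in each of the 4 Rb libraries. The supply genes lay above it in each, with 5 and 6 of the 10 bound in DMSO and 10 and 10 after abemaciclib (p = 0.333, same exact permutation test). With only the 1438 strongest peaks of each library kept, the abemaciclib minus DMSO difference was 1 histone gene instead of 30 and 0 supply genes instead of 4.5, so the counts move with the length of the lists. No promoter of the 79 genes had a peak in the IgG2a library. In a population of cells, Rb on the promoter in more cells and more Rb per cell cannot be told apart.

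**Figure D1:**
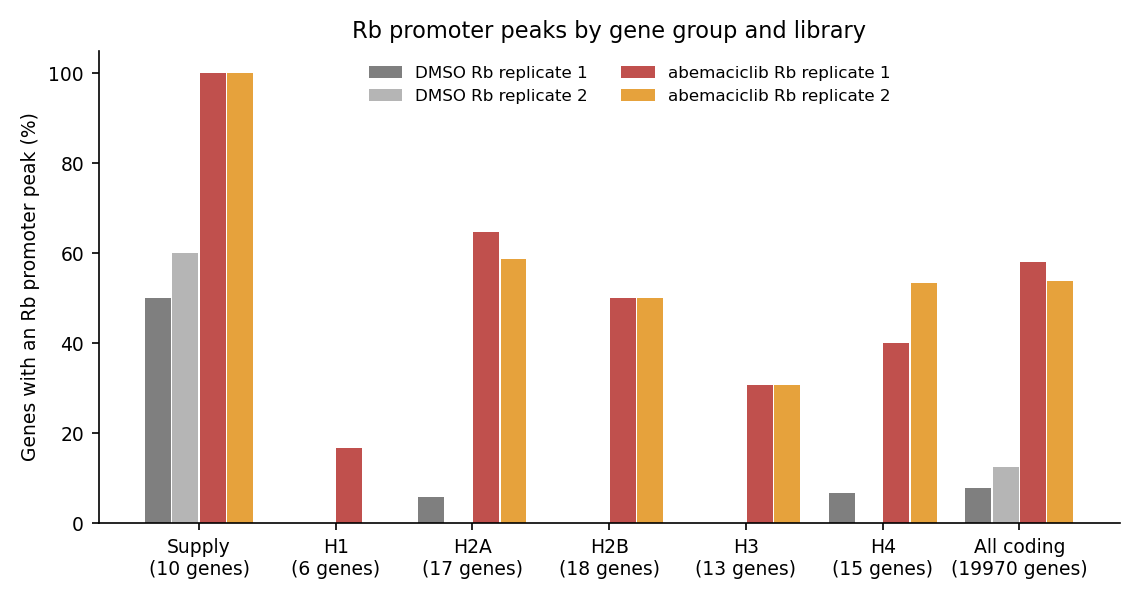
Share of genes with an Rb promoter peak (%, vertical axis) in each of the 4 Rb libraries (bars), for the 10 supply genes, the 5 histone families and all 19970 protein-coding genes. The supply genes reach 100% in both abemaciclib libraries, while H1 reaches 16.7% in abemaciclib replicate 1 and 0% in replicate 2.

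Counted by pattern over the 4 Rb libraries, 24 histone genes (34.8%) were gained, that is, bound by Rb after abemaciclib in both libraries but in no DMSO library, against 38.9% of all coding genes. None was shared by all 4 libraries, against 6.41% of all coding genes, and none was lost (bound in both DMSO and neither abemaciclib library), as for all coding genes (0.0%). A further 2 genes, H4C1 and H2AC11, joined an abemaciclib peak in both libraries to a peak in DMSO replicate 1, so that 26 histone genes (37.7%) had a peak in both abemaciclib libraries, against 52.7% of all coding genes. The gained genes H2BC11 and H3C1 share the abemaciclib peaks of H2AC11 and H4C1. They count as gained because the DMSO replicate 1 peaks inside those spans lay outside their own windows. Another 10 histone genes were bound in a single abemaciclib library, 5 in each, and 33 had no Rb peak in any library. The calls in a single library rested on 6 to 9 overlapping fragments at the summit, close to the lowest pileup called in those libraries, which was 5. The 10 supply genes split into 5 shared genes (SLBP, NPAT, ASF1B, NASP and CASP8AP2), 4 gained genes (ASF1A, CHAF1A, CHAF1B and LSM11) and HIRA, which was also bound in DMSO replicate 2.

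Summit heights were put on a common scale before libraries were set side by side. The fragment pileup at each summit was solved as a whole number from the fold and the p-value of the peak, which succeeded for 98.5% to 99.8% of peaks per library. It was then divided by the library's mean fragment coverage of the genome, 0.521 to 0.677 in the 5 libraries. The result, called height here, is a multiple of the genome mean and corrects for depth only. No spike-in scale was used, so a change that affects the whole genome is not seen by it. The lowest height called ranged from 7.62 to 9.60 in the Rb libraries and was 11.3 in IgG2a. DMSO replicate 1 had 1438 peaks and DMSO replicate 2 had 2582, against 13960 and 12234 after abemaciclib and 589 for IgG2a. Distances run from the summit to the nearest annotated start of the gene unless the canonical start is named. Peak lists hold no read counts, so no interval of counting error could be given.

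Among the supply genes, SLBP (ENSG00000163950.13, start at chr4 position 1712319, minus strand) had the highest peak in DMSO replicate 2 and abemaciclib replicate 1, and ASF1B in the other 2 Rb libraries. Its summit height was 37.0 in DMSO replicate 1, 54.7 in DMSO replicate 2, 333.8 in abemaciclib replicate 1 and 299.4 in abemaciclib replicate 2. SLBP ranked 36 among the 13960 peaks of abemaciclib replicate 1 and 59 among the 12234 of replicate 2, and 81 and 45 in the shorter DMSO lists. Its summits lay 182 to 208 bp upstream of the start, and because the start of TACC3 lies within 1 kb, the peak cannot be assigned to one of the 2 genes.

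ASF1B and NPAT behaved like SLBP. ASF1B had heights of 41.6 and 38.4 in DMSO and 292.7 and 305.2 after abemaciclib, with summits 245 to 273 bp upstream of its start. NPAT had heights of 37.0 and 38.4 in DMSO and 265.2 and 264.9 after abemaciclib, and it shares its promoter region with ATM. For these 3 genes both DMSO values lay far below both abemaciclib values. The ratio of the mean height after abemaciclib to that in DMSO was 6.91 for SLBP, 7.03 for NPAT and 7.47 for ASF1B. Over the 1279 coding genes with a peak and a solved pileup in all 4 libraries the median ratio was 7.35, with quartiles of 6.01 and 8.94, so these 3 genes lay in the middle of the shared genes in ratio, and in mean height they exceeded 87.7% to 94.5% of them in each treatment.

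NASP and CASP8AP2 lay at the opposite ends of that range. NASP had heights of 12.3 and 19.2 in DMSO and 198.2 and 203.5 after abemaciclib, a ratio of 12.7 (10.3 to 16.5 over the 4 pairs of libraries) that exceeded the ratio of 97.9% of the 1279 shared genes. The NASP summit lay 224 and 425 bp downstream of the canonical start in DMSO and 808 and 803 bp downstream after abemaciclib, so the heights were taken at different points of overlapping peaks. CASP8AP2 had heights of 20 and 25.1 in DMSO and 57.9 and 49.9 after abemaciclib, a ratio of 2.39 (1.99 to 2.89 over the 4 pairs). Of the 1279 shared genes a single one, AADAT, an aminotransferase gene named after its value was seen, had a lower mean ratio. In the 4 pairs of single libraries the number of genes below CASP8AP2 was 5, 0, 3 and 1. In DMSO the mean height of CASP8AP2 exceeded that of 792 of the 1279 genes (61.8%), and after abemaciclib that of 9 (0.704%).

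The CASP8AP2 peak kept its place. It spanned chr6:89829706-89830069 in DMSO replicate 1 and chr6:89829228-89830233 in abemaciclib replicate 1 (GRCh38), and in all 4 libraries its summit fell within the 150 bases printed above with their E2F matches. Its rank by p-value, as a percent of the list with 0 as the strongest, was 22.5% and 11.3% in DMSO and 22.4% and 28.6% after abemaciclib, so the treatments overlapped in it. None of the 100-base words of its promoter window recurs elsewhere in the genome, and no IgG2a peak overlapped it. For each of the 5 shared genes the DMSO and abemaciclib heights did not overlap, for which the exact permutation test over libraries cannot go below p = 0.333. The ratio of mean heights was above 1 in 100% of the 1279 shared coding genes, so a rise was not particular to these 5.

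**Figure D2:**
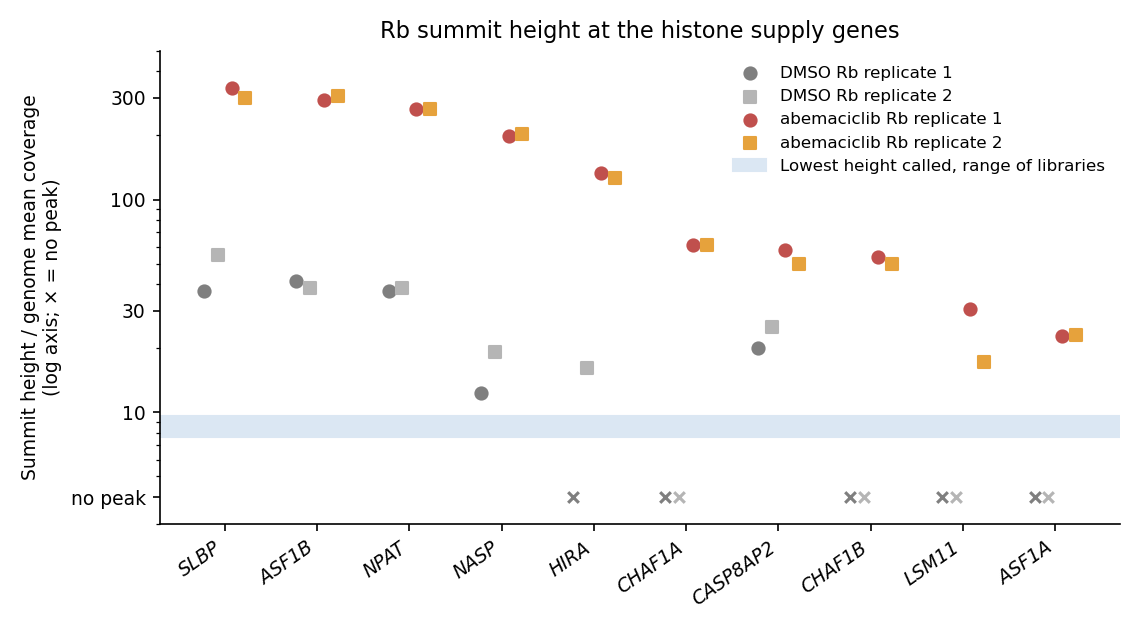
Height of the best promoter peak (summit pileup over genome mean coverage, log axis) at the 10 supply genes in the 4 Rb libraries (points), with crosses where a library had no peak and a band for the lowest height called, 7.62 to 9.60. SLBP reaches 333.8 and 299.4 after abemaciclib, whereas CASP8AP2 rises less, from 20 and 25.1 in DMSO to 57.9 and 49.9.

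HIRA had a peak after abemaciclib at its canonical start and another, with its summit 15.8 kb upstream of it, at a further annotated start. At the canonical start the heights were 132.6 and 126.7, and at the upstream start, near the start of C22orf39, they were 135.7 and 120.9. MRPL40 as well starts within 1 kb of a HIRA start, so these peaks may not belong to HIRA alone. The only DMSO peak, of height 16.2 in replicate 2, lay at the upstream start. In CHAF1A the highest peak in the window, 61.0 and 61.4, lay 2203 and 2173 bp upstream of the start and within 49 bp of the start of SH3GL1, a neighbouring gene. A separate peak, 24 bp upstream and 63 bp downstream of the canonical start of CHAF1A in replicates 1 and 2, reached 39.6 and 40.3.

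CHAF1B, the other CAF-1 subunit tested here, had heights of 53.4 and 49.9 with summits 70 and 114 bp downstream of its start. LSM11 had heights of 30.5 and 17.3 on 20 and 9 fragments. ASF1A, the paralogue of ASF1B, had heights of 22.9 and 23, and MCM9 starts within 1 kb of it. The 2 ASF1 paralogues therefore differed in both measures, ASF1B being bound in all 4 libraries and ASF1A only after abemaciclib, at lower heights.

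Histone gene peaks were lower in the median than those of the supply genes, but the ranges overlapped. ASF1A, at 22.9 and 23, lay below the histone medians given next. A peak shared by neighbouring histone genes counts here for each of them. For the 26 histone genes bound in both abemaciclib libraries the height ranged from 13.7 to 103.7 (median 30.5) in replicate 1 and from 17.3 to 94.0 (median 30.7) in replicate 2. The median pileup over bound genes was 19 and 14 fragments for histone genes, 63.5 and 49 for supply genes and 27 and 22 for all bound coding genes in abemaciclib replicates 1 and 2. The median rank of the best promoter peak, as a percent of its list with 0 as the strongest, was 51.7% and 55.0% for histone genes, 14.5% and 15% for supply genes and 37.9% and 40.0% for all bound coding genes. These figures describe the genes that had a peak and leave out the histone genes without one.

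**Figure D3:**
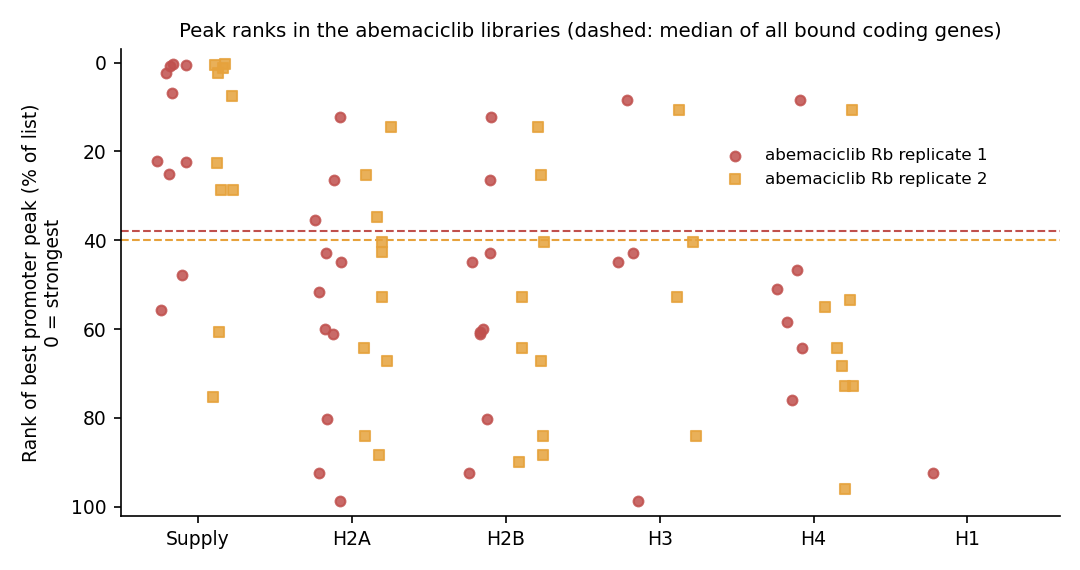
Rank of the best promoter peak as a percent of the library's peak list (vertical axis, 0 at the top is the strongest) for each bound gene in abemaciclib replicates 1 and 2 (points), with dashed lines at the medians of all bound coding genes, 37.9% and 40.0%. Points of 5 supply genes lie in the top 10% of both lists, and the best histone peak, shared by H3C1 and H4C1, lies at 8.44% and 10.7%.

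The highest histone peak lay at H4C1, a core histone H4 gene (ENSG00000278637.2, start at chr6 position 26021649, plus strand). Its height was 16.9 in DMSO replicate 1 and 103.7 and 94.0 after abemaciclib, with no peak in DMSO replicate 2. The summits lay 37, 3 and 13 bp upstream of the H4C1 start. The same abemaciclib peak reached into the window of H3C1, about 1.2 kb away, which was therefore called bound although no summit lay near its start. H4C9, the H4 gene ranked next, had no DMSO peak and heights of 21.3 and 26.9 on 14 fragments in each abemaciclib library, with summits 30 and 13 bp upstream of its start.

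The strongest H2A and H2B peaks lay at divergent gene pairs. H2AC11 and H2BC11, whose starts are 248 bp apart, shared a peak of height 85.4 and 78.7 after abemaciclib. It covered the H2AC11 stretch printed above, but its summits lay outside that stretch, 68 and 65 bp upstream of the H2BC11 start. The DMSO replicate 1 peak that called H2AC11 bound rested on 6 fragments, the lowest pileup called in that library, with its summit 1200 bp upstream of the H2AC11 start and inside the span of the abemaciclib peaks. H2AC25 and H2BC26 on chromosome 1, 230 bp apart, shared a peak of height 62.5 and 67.2, with summits 72 and 75 bp downstream of the H2AC25 start, and had no peak in DMSO. Of 12 divergent H2A and H2B pairs with starts 194 to 251 bp apart, 7 were bound in both abemaciclib libraries. In 11 of the 12 both genes had the same pattern over the 4 libraries, which the overlap of their windows favours, and H2AC11 with H2BC11 was the exception.

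The H3 and H1 genes had the fewest peaks. Bound in both abemaciclib libraries were 9 of 17 H2A genes (52.9%), 8 of 18 H2B genes (44.4%), 6 of 15 H4 genes (40.0%), 3 of 13 H3 genes (23.1%) and none of the 6 H1 genes. Over all coding genes the share was 52.7%, so H2A lay at the background and the other families below it. The 3 H3 genes were H3C1, H3C10 and H3C12, and each owed its best peak to a neighbour: H3C1 to the peak at H4C1, H3C10 to that at H2BC13 and H2AC13, and H3C12 to that beside H2BC17, of heights 32.0 and 36.5, which meets only the window of an upstream H3C12 transcript. At the canonical start of H3C12 there was a peak of height 9.15 in abemaciclib replicate 1, on 6 fragments, and none in replicate 2. The only H1 call was H1-2 in abemaciclib replicate 1, of height 9.15 on 6 fragments and 909 bp downstream of the start. No H1 gene is ranked next to it, since the other 5 had no peak.

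Counting peaks instead of genes removed the double use of a peak by neighbours. The 31 bound histone genes rested on 25 distinct peaks in abemaciclib replicate 1 and on 24 in replicate 2. The nearest canonical histone start belonged to an H2A gene for 9 and 7 of them, to an H2B gene for 8 and 7, to an H4 gene for 6 and 9, to an H3 gene for 1 and 1 and to an H1 gene for 1 and 0. The median distance from summit to that start was 85 and 165 bp, and 80% and 66.7% of the peaks lay within 250 bp, against 65.3% and 65.2% of all promoter peaks of those libraries measured to the nearest canonical coding start. Peaks of fewer than 20 fragments made up 68.0% and 79.2% of the peaks at histone promoters and 42.4% and 50.3% of all promoter peaks. Counted by gene instead, where a gene can be called by a neighbour's peak, the median distance from summit to the gene's nearest start was 232 and 209 bp for bound histone genes and 118 and 123 bp for all bound coding genes.

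Of the 33 histone genes with no Rb peak, 5 were H1 genes (H1-1, H1-3, H1-4, H1-5 and H1-6), 5 were H2A genes (H2AC1, H2AC6, H2AC7, H2AC18 and H2AC19) and 8 were H2B genes (H2BC1, H2BC3, H2BC4, H2BC5, H2BC6, H2BC7, H2BC9 and H2BC10). The remaining ones were 8 H3 genes (H3C3, H3C4, H3C7, H3C8, H3C11, H3C13, H3C14 and H3C15) and 7 H4 genes (H4C4, H4C5, H4C6, H4C7, H4C13, H4C14 and H4C15). Some of these windows are repeated in the genome, where short reads cannot be placed uniquely: every 100-base word of the promoter windows of H3C14, H3C15, H4C14 and H4C15 recurs elsewhere in the genome, as do 48.4% of the words of H2AC18 and of H2AC19, and the part of this in the missing peaks was not tested. The share was 43.8% for H2BC18, which was bound, 40.2% for H3C13, which was not, and 12.2% or less for the other genes, with no repeated word in 41 of the 69 windows. Without the 4 fully repeated genes, 26 of 65 histone genes (40.0%) were bound in both abemaciclib libraries.

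The chromosome 6 cluster, from H2AC1 to H2BC17, spans 2170.4 kb (chr6:25724777-27895185) with 55 histone genes, 20 other coding genes and 98 tRNA genes. It held 2 peaks in DMSO replicate 1, none in DMSO replicate 2, 33 and 31 in abemaciclib replicates 1 and 2 and none in IgG2a. The means were 1.0 ± 1.41 and 32.0 ± 1.41 peaks (SD, n = 2 libraries each; exact permutation p = 0.333). After abemaciclib 18 peaks in each library overlapped a histone promoter, 3 and 4 another coding promoter only, and 12 and 9 neither, of which 3 and 2 lay at tRNA genes. In the cluster 20 histone genes (36.4%) and 3 of the 20 other coding genes (15%; ABT1, PRSS16 and ZNF184, named after their values were seen) were bound in both abemaciclib libraries. Over all coding genes this share was 52.7%.

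Occupancy was uneven along the cluster. Where starts more than 500 kb apart were separated, the cluster fell into 3 segments. The first, from H2AC1 to H4C8, spans 562.9 kb with 34 histone genes, of which 4 (11.8%) were bound in both abemaciclib libraries. The second, from H2BC11 to H2AC12, spans 17.8 kb with 5 genes, all bound in both. The third, from H2BC13 to H2BC17, spans 89.0 kb with 16 genes, of which 11 (68.8%) were bound in both. The share of all coding genes bound in both was 52.7%. Peaks numbered 7 and 8 in the first segment, 4 and 4 in the second and 9 and 9 in the third in abemaciclib replicates 1 and 2. The highest peak of the cluster, at H4C1, nonetheless lay in the sparsely bound first segment. Genes of a segment share peaks and windows, so no test of the difference between segments was made.

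**Figure D4:**
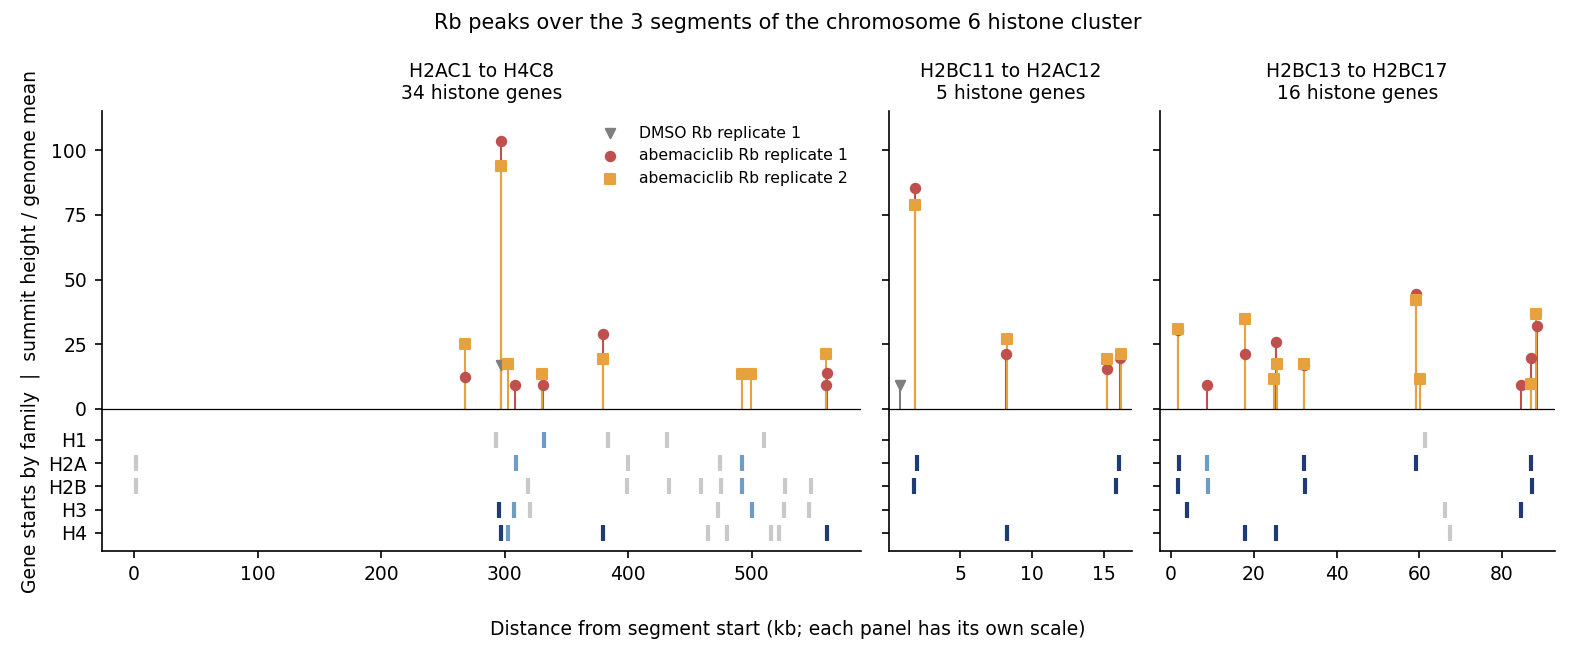
Rb peaks over the 3 segments of the chromosome 6 cluster (horizontal axis, distance from the segment start in kb, a separate scale per panel), drawn as lines up to the summit height over genome mean coverage, with ticks below for the starts of each family. Dark blue ticks are genes bound in both abemaciclib libraries, light blue in 1 and grey in neither; 4 of 34, 5 of 5 and 11 of 16 ticks are dark from left to right.

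On chromosome 1 the cluster from H2BC18 to H2AC21 (chr1:149811257-149889965, 11 histone genes) held 6 and 4 peaks after abemaciclib and none in DMSO, and 4 of its 11 genes (H2BC18, H2BC21, H2AC20 and H2AC21) were bound in both abemaciclib libraries. H2AC20 and H2AC21 lie beside BOLA1, and the best peak in the H2AC20 window, of heights 32.0 and 42.2, lay at -1365 and -1311 bp from its start. The pair H2AC25 and H2BC26 (chr1:228456103-228459873) held 1 peak in each abemaciclib library. The chromosome 1 clusters together gave 0 and 0 peaks in DMSO and 7 and 5 after abemaciclib, a mean of 6.0 ± 1.41 (SD, n = 2; exact permutation p = 0.333). H4C16, alone on chromosome 12, was bound in abemaciclib replicate 2 only, at a height of 17.3.

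Histone promoters were poorer in GC and richer in core promoter words than the promoters of the supply genes. In the RefSeq stretch from 250 bases before to 50 bases after the start, the median GC content was 43.2% for 64 histone genes, 65.7% for the 10 supply genes and 63.0% for 15316 coding promoters, and the median number of CpG dinucleotides was 11, 31.5 and 22. TATAAA was found in 65.6% of histone promoters, 10.0% of supply promoters and 9.64% of all coding promoters. The octamer ATTTGCAT was found in 40.6% of histone promoters, 77.8% of those of the H2B family, no supply promoter and 1.70% of all coding promoters. All 6 H1 promoters held the H1 box word AAACACA, against 4.26% of all coding promoters, and 12 of 13 H4 promoters held the H4 element word GGTCCG, against 14.6%.

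The E2F words were present in 35.9% of histone promoters, 50% of supply promoters and 17.4% of all coding promoters. They were found in 11 of 13 H4 promoters (84.6%), in 5 of 16 for H2A, 6 of 18 for H2B, 1 of 11 for H3 and none of 6 for H1. The H3 and H1 families thus had the smallest shares of both E2F words and Rb peaks. H4, with the largest share of E2F words, was bound in both abemaciclib libraries less often than H2A and H2B. That order depended on the measure. In abemaciclib replicate 2 alone 8 of 15 H4 genes were bound, against 9 of 18 for H2B and 10 of 17 for H2A. Distinct peaks nearest an H4 start were fewer than those of H2A and H2B in replicate 1 (6 against 9 and 8). In replicate 2 they were more (9 against 7 and 7). Of the histone genes bound in both abemaciclib libraries 12 of 22 (54.5%) held an E2F word, and of those with no Rb peak 8 of 32 (25%). Divergent genes share much of this stretch, so these are fewer independent sequences than genes and no test was made. SLBP, ASF1B and NASP, with heights of about 200 or more after abemaciclib, held none of the 4 words in this stretch. The NASP summits after abemaciclib, 808 and 803 bp downstream of the canonical start, lay outside it. Those of ASF1B, 245 bp upstream, lay at its edge, so the sequence under these 2 genes' peaks was not fully scanned. CASP8AP2 held 3 matches in this stretch, a pair of them on a single palindrome. The CCAAT word was found in 84.4% of histone promoters and 36.6% of all coding promoters, and TTTGAA in 35.9% and 12.1%. For H3C4 and H3C6 the RefSeq start lies more than 100 bp from the GENCODE canonical start used for the peaks. The RefSeq stretch of H3C4 is the same as that of H2AC7, so it is counted in both the H3 and the H2A family. That stretch held no E2F word.

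Genes related to the members were bound more often than the histone genes. Of 12 genes for replication-independent histone variants, 10 were bound in both abemaciclib libraries (83.3%), 3 of them, H2AZ1, H2AZ2 and H3-3A, in all 4 Rb libraries. Of 23 other genes for histone gene transcription and 3′ end processing, 21 were bound in both (91.3%) and 8 in all 4: CCNE2 (cyclin E2), POU2F1 (the octamer-binding factor OCT-1), the cleavage factor genes CPSF1 and CPSF3, the cap-binding subunit NCBP1, and SNRPB, SNRPD3 and SNRPE, which encode Sm core proteins. A list of 23 genes for other histone chaperones and modifiers of new histones had 22 bound in both (95.7%). The 7 bound in all 4 were DNAJC9, HAT1, MCM2, NAP1L1, SUPT16H, TONSL and PCNA, the replication clamp, which is neither. Against the 52.7% of all coding genes bound in both abemaciclib libraries, these lists lay above the background and the replication-dependent histone genes, at 37.7%, below it.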

How the data were processed

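Rb CUT&RUN was profiled in ZR-75-1 cells (2 DMSO, 2 abemaciclib and 1 IgG2a library), grouped by sample title. Paired-end reads were trimmed by the authors, aligned to hg38 with Bowtie2 2.3.4.1, kept with their duplicates and used to call peaks per library with MACS2 2.2.7.1 at q = 0.05 against IgG; DiffBind and deepTools 3.5.0 are also listed in the submitters' processing notes. Each deposited peak has a score, a fold enrichment (ratio of pileup plus 1 to background plus 1) and −log10 p and q values. The deposited peak positions and summits are in base pairs.

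Promoters were 2000 bp upstream to 500 bp downstream of any GENCODE 44 protein-coding transcript start. Pileups were solved from fold and Poisson p at a tolerance of 0.002, a step tested on simulated data, and the lowest recurrent background was taken as mean genome coverage. Libraries were compared by exact permutation (scipy). Clusters joined histone genes with starts under 1 Mb apart. Named were all supply genes, histone genes bound in DMSO, the 2 best-ranked genes per family and those without a peak. Genes of the other lists were named where bound in all 4 Rb libraries. The members and lists were chosen with earlier results of these data known. The study's count model was not run, because peak lists hold no counts over common regions.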

Additional observations from a re-analysis of the deposited data

How the results depend on the processing

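Over 9 results and 116 alternatives, 108 stayed within 1.5 times the reported value, 8 moved and 0 changed direction. Some of the 108 could not have moved, as said below, so their number is not a measure of robustness. Keeping only the 1438 strongest peaks of every library changed most: the abemaciclib minus DMSO difference fell to 1.0 bound histone genes (reported 30) and to 0 bound supply genes (reported 4.5), gained genes to 1 histone gene (24) and 1 supply gene (4), and the differences in cluster peaks to 0 on chromosome 6 (31) and 0 on chromosome 1 (6.0). At equal list length the excess of bound histone genes after abemaciclib is therefore nearly gone, and the cause was not tested. Splitting the chromosome 6 cluster at 500 kb gave a difference of 19.5 peaks, because peaks between the segments are left out. Leaving out DMSO Rb replicate 2 made 2 histone genes (H4C1 and H2AC11) shared instead of 0. Leaving out each library in turn gave differences of 29 to 31 bound histone genes and 4.0 to 5.0 supply genes, 24 to 29 and 4 to 5 gained, 0 to 2 and 5 to 6 shared, 0 to 0 histone genes lost, and 30 to 32 and 5.0 to 7.0 cluster peaks on chromosomes 6 and 1. Removal of peaks over IgG2a peaks left all 9 values as they were. It had almost nothing to act on, since no member promoter or histone cluster held an IgG2a peak. Stricter q-values moved none of the 9 results by over 1.5 times. Nor did narrower windows, 200 bp of overlap, summits inside the window or canonical transcripts move the counts of genes, on which alone they were run. Removal of the 4 fully repeated genes, chosen after seeing the data, was run on the counts of histone genes. It could not change them, because none of the 4 had an Rb peak. Libraries of the treatments share only a number. Paired by it, a replicate block chosen after seeing the data, the differences were 29 and 31 bound histone genes (mean 30), 5 and 4 supply genes (4.5), and 31 and 31 (31) and 7 and 5 (6.0) cluster peaks on chromosomes 6 and 1, each with an exact paired permutation p of 0.5, the smallest that 2 pairs allow. The means of these paired differences equal the unpaired differences by arithmetic and are no separate check. Over the 1279 shared genes the log2 height difference between replicates 1 and 2 correlated at -0.0866 between the treatments. Calls on 5 to 9 fragments are limited by depth.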
